A study of Mus musculus with 28 samples.

Results

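The effect of imiquimod on gene expression in mouse epidermal stem cells was compared between the end of treatment, day 6, and 30 days after treatment, day 30. The quantity of interest was the difference of effects, which is the log2 change of imiquimod over control at day 6 minus the same log2 change at day 30. It is positive where imiquimod raised a gene more at day 6 than at day 30, and negative where imiquimod lowered it more at day 6. All genes expressed highly enough to test were included, which left 17299 of the 30802 gene IDs with a read. The labels describe C57BL/6 females treated on the skin from postnatal day 60 for 6 days with imiquimod cream or with Vanicream as control, and no engineered allele is labelled. Cells were sorted as integrin A6+, B1+, Sca1+ and CD34-, the profile of basal cells of the interfollicular epidermis and upper follicle. Each of the 4 groups, imiquimod and control at each day, had 2 libraries, 8 of the 16 RNA-seq libraries among 28 samples. The other 8 RNA-seq libraries came from skin wounded at day 30 and taken 6 h or 12 h later. The labels do not say that libraries came from separate mice, so p-values measure the spread between these libraries, which may be technical in part.

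Imiquimod activates Toll-like receptor 7 and, applied to mouse skin, causes a psoriasis-like dermatitis in which interleukin-17 and interleukin-36 family cytokines act on keratinocytes. Keratinocytes respond with antimicrobial proteins, stress keratins and faster division, and the skin clears after the cream is withdrawn. In the inflammasome, a pathway of interest in this series, the sensor Aim2 binds DNA in the cytosol and caspase-1 cuts the precursors of interleukin-1 family cytokines.

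The 8 libraries held 23623968 to 49538267 counts in all. Levels are counts relative to the library total, given as CPM on library sizes scaled by TMM, a between-library normalization, and are compared only within a gene. In 2 day 30 libraries the sex went against the label: imiquimod replicate 1 held 6036 Y-linked reads with 1 Xist read, and control replicate 1 held 7830 Y-linked reads with 0 Xist reads, while Xist had 11484 to 71172 reads in the other 6, none of which held over 1 read of a Y-linked gene. Of the sort and basal markers, Itga6 was at 484 to 2310 CPM, Itgb1 at 198 to 592 CPM, Ly6a (Sca1) at 173 to 366 CPM and Krt5 at 14900 to 33500 CPM in all 8 libraries, and Cd34, sorted against, was at 0.207 to 11.1 CPM. Macrophage markers moved with treatment at day 6: 11 of 17 tested were raised, and Adgre1 was at 9.11 and 12.5 CPM after imiquimod, against 0.99 and 0.21 CPM in control. At day 30 Adgre1 was at most 0.226 CPM in all 4 libraries. The fibroblast collagen Col1a1 was at 50.6 CPM in imiquimod replicate 1 of day 30 and at most 0.993 CPM in the other 3 libraries of that day. Of 12 neutrophil markers, Cxcr2 was at 11.6 and 25.7 CPM after imiquimod at day 6, against 2.39 and 0.18 CPM in control, and held most of their sum (15.7 and 28.7 CPM after imiquimod, against 3.06 and 0.721 CPM in control). Of 3 neutrophil markers tested, 2 were raised and 0 lowered at day 6. Csf3r was at 0.941 and 0.539 CPM after imiquimod, against 0.141 and 0 CPM in control. Clec4d was at 0.461 and 0.254 CPM after imiquimod, against 0.0884 and 0 CPM in control. Ly6g and Elane were at 0 in the 4 libraries of day 6, and Mpo and Retnlg at most at 0.0401 CPM. Imiquimod replicate 1 of day 6 stood apart in mitochondrially encoded reads, at 7.65% of counts, against 1.43% to 3.31% in the other 7. The part of these cells and libraries in the results below was not tested. In sorted bulk samples, fewer cells of a type and less RNA per cell cannot be told apart.

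The median strong day 6 change left almost none of its size at day 30. In the fit of all 16 libraries Aim2 and Zfp608 were classed as kept, since their day 30 effect passed in the day 6 direction. In that fit 433 genes could be shown to return to control, and most strong changes could not be placed one by one. No gene was shown to be kept in a fit of the 8 libraries alone or without control replicate 2 or imiquimod replicate 2 of day 30. At day 6, 6333 genes (36.6% of those tested) differed between imiquimod and control at an adjusted p below 0.05 by edgeR's quasi-likelihood test, 3744 raised (21.6%) and 2589 lowered (15.0%). At day 30, 2 genes (0.0116%) did, the DNA sensor Aim2 (raised, 0.00578%) and the zinc finger gene Zfp608 (lowered, 0.00578%), while 716 (4.14%) had an unadjusted p below 0.05, 359 positive (2.08%) and 357 negative (2.06%), and DESeq2 called 20. The difference of effects passed in 3894 genes (22.5%), 2368 more positive at day 6 (13.7%) and 1526 more negative (8.82%). With the replicate number as a block it passed in 5927 genes, 2406 of them negative. Leaving out single libraries gave 2324 (without imiquimod replicate 2 of day 30) to 3803 genes, with 2459 without control replicate 2 of day 6. With the day 30 libraries of replicate 2 alone, which match their labelled sex, the difference passed in 2749 genes and the day 30 effect in 1, which was Gpc3. Across all genes the median log2 change was 0.10 at day 6, -0.02 at day 30 and 0.10 for the difference, against which the values below are to be read.

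A strong day 6 change was taken as one that passed the test with an absolute log2 change of at least 1, which held for 3508 genes (20.3%), 1831 raised and 1677 lowered. The median gene of either set had -0.5% of its day 6 log2 change left at day 30, with quartiles of -13% and 14.3% among raised genes and -13.1% and 11.4% among lowered genes. By the sign of the estimate the day 30 direction was close to that of all genes. Of raised genes 46.8% were still above control, against 45.5% of all genes, and 49.3% of lowered genes were still below, against 53.7% of all genes. At an unadjusted p below 0.05, 4.42% of raised genes were above control (2.84% below) and 3.34% of lowered genes below (2.39% above). Of all genes 2.08% were above and 2.06% below at that p. More than 50% of the log2 change remained, by the estimate, in 137 raised genes (7.48%) and 37 lowered genes (2.21%). A return was then tested directly, since a p that misses the threshold does not show one: a gene was called returned if a test for the loss of more than 50% of its log2 change passed (797 genes over all, 4.61%, with 2.72% positive and 1.89% negative) and its day 30 level was shown to lie within 2-fold of control by 2 one-sided tests (9695 genes over all, 56.0%). A strong change was called kept where its day 30 effect passed in the day 6 direction, at any size. It was also called kept where the loss was shown to be less than 50% and the direction was the same. By these rules 240 raised and 193 lowered genes returned, and a further 74 raised and 106 lowered genes lost more than 50% without being shown to lie within 2-fold. Besides, 1 raised and 1 lowered gene were kept, and 2893 could not be placed. With the replicate block 1229 returned, 368 were reduced and 5 were kept. Leaving out single libraries gave 39 (without imiquimod replicate 2 of day 30) to 625 returned genes. Returned genes were higher expressed than unplaced ones, at a median mean log2 CPM of 5.77 against 2.3 among raised genes and 5.43 against 2.33 among lowered genes, with smaller day 30 standard errors (medians of 0.16 against 0.43 and 0.21 against 0.39).

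**Figure D1:**
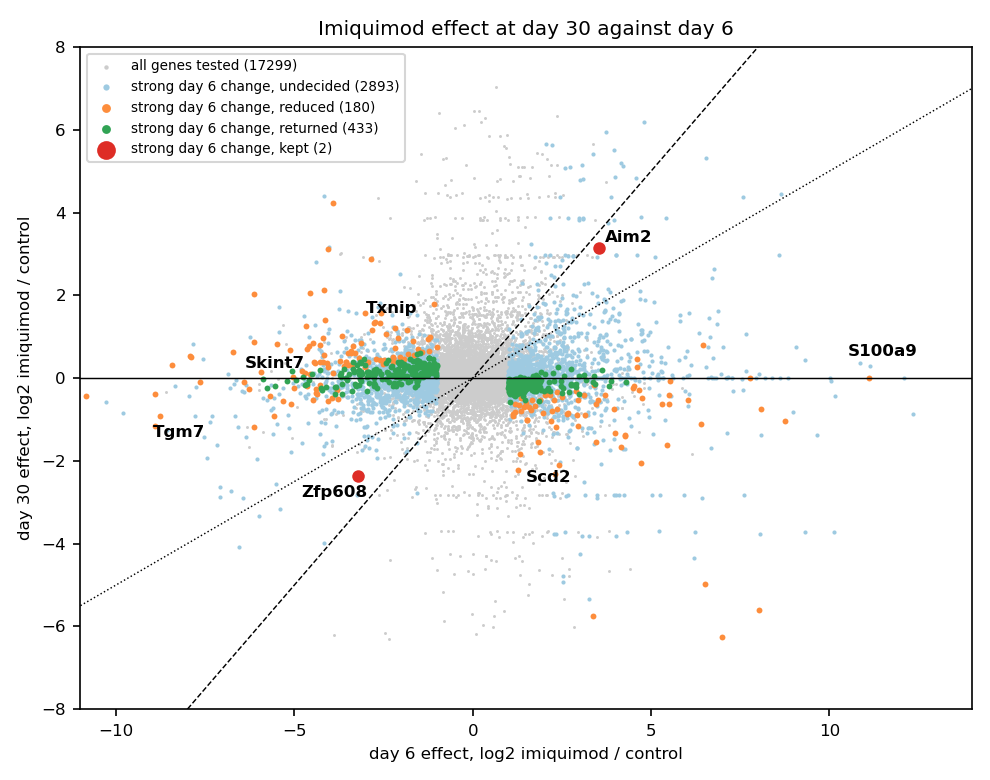
Each point is a gene, with the log2 change of imiquimod over control at day 6 on the horizontal axis and at day 30 on the vertical axis, coloured by what became of strong day 6 changes. The dashed line marks equal effects and the dotted line 50% of the day 6 effect. Day 30 changes lie along 0 for most returned genes, whereas Aim2 and Zfp608 stand near the diagonal. The classes were set in part by these day 30 values, so these places are a description.

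Among the largest differences were antimicrobial, alarmin and cornified envelope genes of inflamed keratinocytes. S100a9, a subunit of the antimicrobial protein calprotectin, had 2021 and 3098 CPM in imiquimod libraries of day 6, against 1.24 and 1.02 CPM in control libraries of day 6. At day 30 it had 8.24 and 0.757 CPM after imiquimod, against 6.43 and 1.09 CPM in control. The groups were far apart at day 6 and interleaved at day 30. The day 6 effect was 11.13 ± 1.58 and the day 30 effect 0.28 ± 1.18 (log2, SE, 2 libraries a group), a difference of 10.85 ± 1.84 (adjusted p = 0.00364), although the day 30 interval, -2.37 to 2.93, was too wide to show a return. Its partner S100a8 behaved alike, with a difference of 10.50 (adjusted p = 0.00302). Fabp5, an epidermal fatty acid binding protein, had 1701 and 3219 CPM after imiquimod, against 71.5 and 37.0 CPM in control, at day 6. By day 30 the level was 85.5 and 72.3 CPM after imiquimod, against 97.7 and 146.2 CPM in control, so that both imiquimod libraries were below both controls. Its difference was 6.13 ± 0.59 (adjusted p = 0.000127). The stefin Stfa3 (difference 7.49, adjusted p = 0.00565), the glucose transporter Slc5a1 (6.57, adjusted p = 0.0028) and the ribonuclease Endou (5.95, adjusted p = 0.00086) also kept their call whichever of the 8 libraries was left out. The calls of 4 more among the 10 largest positive differences were lost in some of the 8 leave-one-out fits: Stfa1 in 3 (5.40 to 5.59, adjusted p up to 0.0519), Sprr1b in 3 (4.93 to 5.85, up to 0.0579; without control replicate 1 of day 6 it passed at 9.55, against 5.88 in the full fit), Csta1 in 5 (3.78 to 6.39, up to 0.115) and Tgm1 in 6 (2.90 to 6.41, up to 0.172). For Csta1 and Tgm1 the lowest of these values, 3.78 and 2.90, came without control replicate 2 of day 30.

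Gene lists of the same program followed. Over all genes tested 2 (0.0116%) passed at day 30, so a list in which none passed, here and below, is near that share. At day 6, 21.6% of all genes were raised and 15.0% lowered. The difference was positive in 13.7% and negative in 8.82% of them. The day 30 medians of lists, here and below, moved with single libraries: in 19 of 23 lists the median turned sign in at least 1 of the 8 leave-one-out fits, and of 28 list counts between 1 and 5 at day 6 or for the difference, 25 moved by over 1.5 times. Of 25 stress keratin and cornified envelope genes tested, 22 were raised at day 6 with a median log2 change of 4.95, none passed at day 30 (median -0.13, or 0.25 without control replicate 2 of day 30), and the difference was positive in 15. That count was 9 without control replicate 2 and 8 without imiquimod replicate 2 of day 30. Of 20 antimicrobial and alarmin genes, 15 were raised at day 6 (median 6.31), none passed at day 30 and 10 had a positive difference, 6 without control replicate 2 of day 30. The day 30 median of this list was 0.09 with 7 of 20 below control, but -1.20 with 16 below without imiquimod replicate 1 of day 30, and -0.51 with the day 30 libraries of replicate 2 alone. Of 23 genes of the IL-17, IL-36, IL-20 and chemokine response, 13 were raised and 3 lowered at day 6 (median 2.62), the day 30 median was -0.05 (0.49 without control replicate 2 of day 30), and the difference was positive in 6 and negative in 2, with 3 positive without control replicate 2 of day 30. Among them Il1f9, which encodes interleukin-36 gamma, had 71.4 and 119.8 CPM after imiquimod, against 7.21 and 4.99 CPM in control, at day 6. The day 30 levels were 9.96 and 20.3 CPM after imiquimod, against 7.66 and 18.4 CPM in control. The groups overlapped at day 30 and not at day 6, with a difference of 3.76 (adjusted p = 0.00193).

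**Figure D2:**
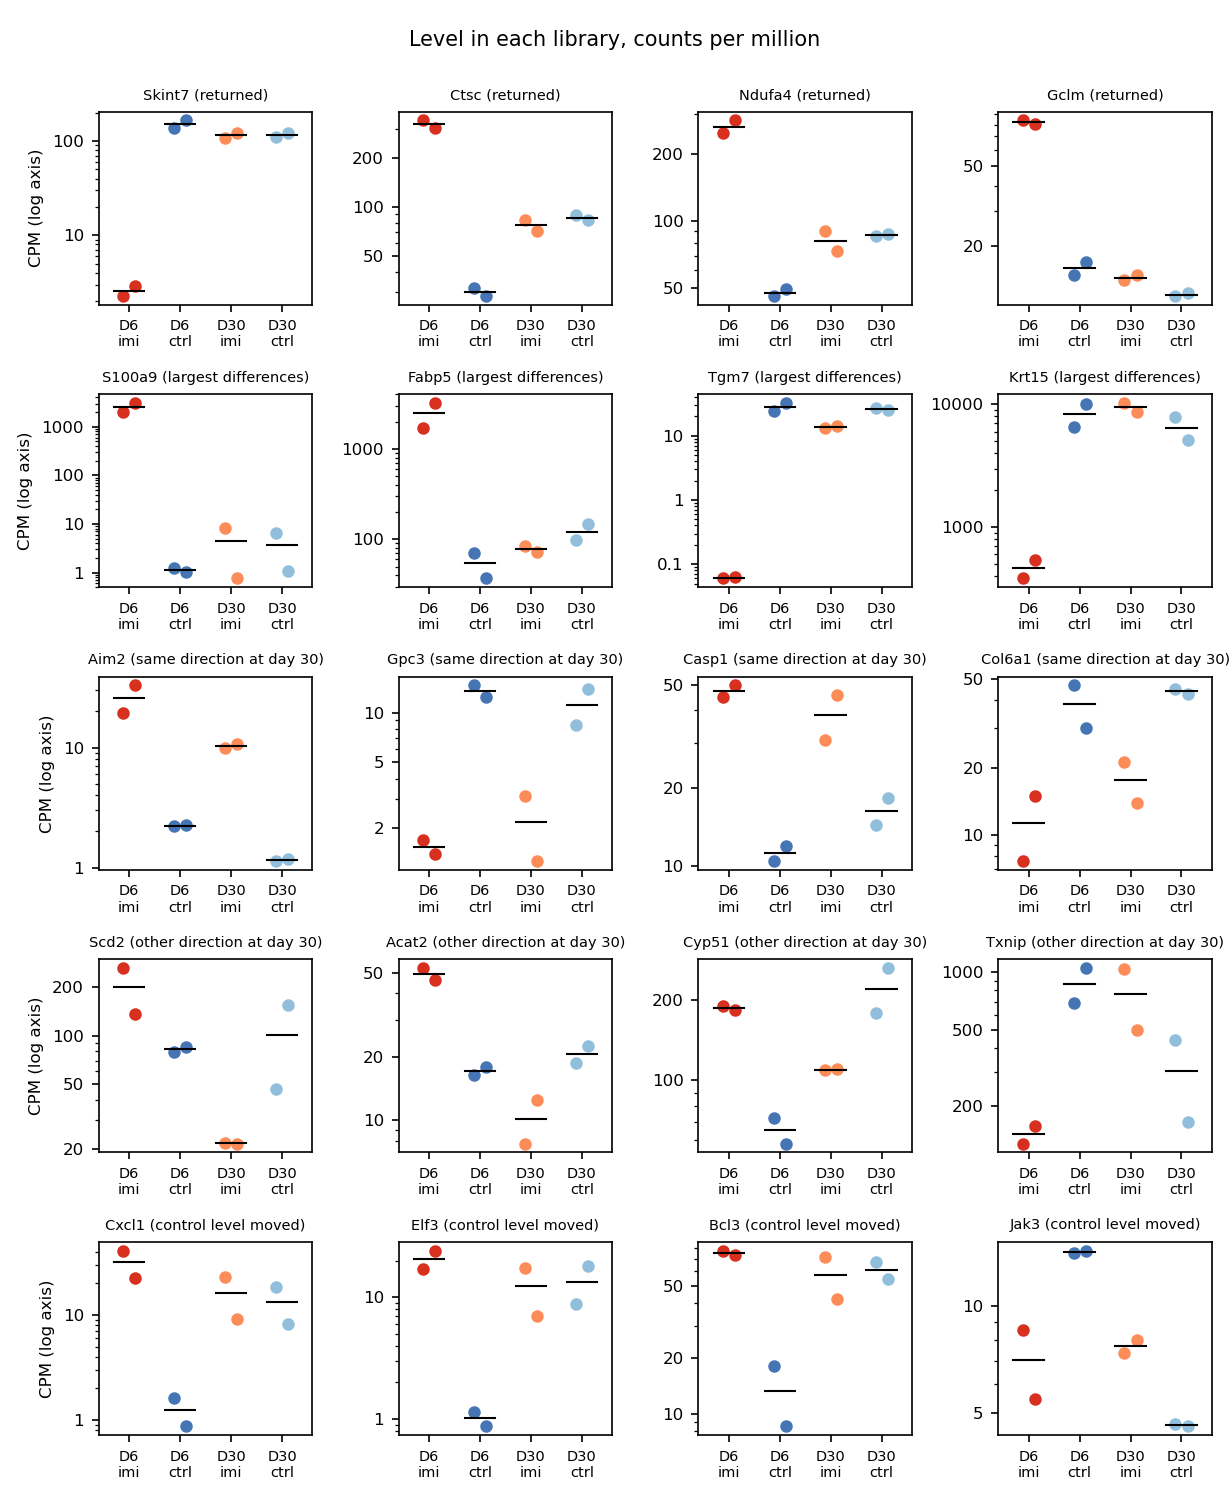
CPM on a log axis in each of the 8 libraries for 20 named genes, as points with a bar at the group mean, imiquimod (imi) left of control (ctrl) within each day. S100a9 stands above control at day 6 and not at day 30, Skint7 stands below control at day 6 and level with it at day 30, and both imiquimod libraries of Aim2 lie above control at both days.

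Genes lowered at day 6 formed the negative side of the comparison. Tgm7, a transglutaminase, had 3 and 2 counts in imiquimod libraries of day 6, against 1360 and 1073 in control libraries, a ratio of 0.00227 (95% counting interval 0.000735 to 0.0053). Day 30 libraries held 13.0 and 14.1 CPM after imiquimod, against 26.8 and 24.7 CPM in control, so that both imiquimod libraries stayed below both controls. The difference of effects was -7.85 ± 0.79 (adjusted p = 0.000134), and the remaining day 30 effect of -0.92 ± 0.41 had an unadjusted p of 0.0449, which did not survive adjustment (adjusted p = 1). Rspo3, a secreted enhancer of Wnt signalling, had 2 and 10 counts after imiquimod at day 6, against 1158 and 1446 in control, and 15.0 and 22.9 CPM after imiquimod at day 30, against 18.5 and 21.9 CPM in control. Its day 30 groups overlapped, and its difference was -7.56 (adjusted p = 0.00104). Skint7, of the mouse Skint family whose member Skint1 selects epidermal gamma delta T cells, lies at chr4:111972924-111988260 (GRCm38.p6). It had 2.28 and 2.89 CPM after imiquimod at day 6, against 137.8 and 165.8 CPM in control. In day 30 libraries the gene was at 106.4 and 122.9 CPM after imiquimod, against 110.5 and 121.2 CPM in control. The day 30 groups overlapped closely, the difference was -5.87 ± 0.44 (adjusted p = 2.74e-05), and Skint7 was shown to lie within 2-fold of control at day 30 (adjusted p = 0.00509). Krt15, the keratin of quiescent basal cells, had 381.7 and 539.8 CPM after imiquimod at day 6, against 6529 and 10160 CPM in control. At day 30 the levels were 10290 and 8732 CPM after imiquimod, against 7840 and 5098 CPM in control, with both imiquimod libraries above both controls. Its difference was -4.73 ± 0.60 (adjusted p = 0.000351). The adhesion gene Cdh4, the neurotrophin receptor Ntrk2 and the cytoskeletal gene Limch1 returned as well, with differences of -5.54, -5.34 and -5.24.

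Of 26 genes of basal adhesion and stem cell identity, 14 were lowered and 3 raised at day 6 (median -0.76), the day 30 median was 0.12, and the difference was negative in 9 and positive in 2, with 15 negative without imiquimod replicate 2 of day 6. The 14 lowered at day 6 were 8 without imiquimod replicate 1 of that day. Of 11 Skint family genes, 5 were lowered at day 6 (median -1.61), or 3 without control replicate 2 or imiquimod replicate 1 of day 6, and 3 had a negative difference. All 11 estimates were below control at day 30 (median -0.45), but 2 were without control replicate 2 of day 30 (median 0.33), and the median was -1.21 without imiquimod replicate 2 of day 30. The count of 3 was 6 with the block, 5 without control replicate 2 of day 30, and 1 without control replicate 2 of day 6 or imiquimod replicate 2 of day 30. Of 33 genes of Wnt, Notch and BMP signalling, 13 were lowered and 5 raised at day 6, and the difference was negative in 9, or 14 without imiquimod replicate 2 of day 6, and positive in 3. Of 28 neural and adhesion genes, 10 were lowered and 4 raised, or 0 raised without control replicate 2 of day 6, and the difference was negative in 9 and positive in 1, or 5 with the block. No gene of these 4 lists passed at day 30, where 0.0116% of all genes did.

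The genes shown to return included Ctsc, Ndufa4, Gclm, Rrm2 and Nhp2. Ctsc, which encodes the protease cathepsin C, had 341.0 and 304.0 CPM after imiquimod at day 6, against 31.7 and 28.3 CPM in control. At day 30 it had 82.8 and 71.4 CPM after imiquimod, against 88.9 and 82.6 CPM in control, and these groups overlapped. The day 6 effect was 3.43 ± 0.17, the day 30 effect -0.15 ± 0.16 and the difference 3.58 ± 0.23 (adjusted p = 7.14e-06). Its control level was itself higher at day 30 than at day 6, by 1.51 (adjusted p = 6.98e-05). Ndufa4, a subunit of the respiratory chain, had 246.6 and 281.9 CPM after imiquimod at day 6, against 46.2 and 49.3 CPM in control. By day 30 the level was 90.0 and 73.2 CPM after imiquimod, against 85.4 and 87.1 CPM in control. Its day 30 groups overlapped and the difference was 2.55 ± 0.19 (adjusted p = 1.35e-05). Gclm, a subunit of the glutathione-making glutamate-cysteine ligase, returned with a difference of 2.12 (adjusted p = 8.31e-05), and so did the ribonucleotide reductase subunit Rrm2 (2.24, adjusted p = 0.000426) and the small nucleolar ribonucleoprotein Nhp2 (1.86, adjusted p = 0.000127).

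Of 40 nuclear-encoded oxidative phosphorylation genes, 39 were raised at day 6 (median 1.01) and none passed at day 30 (median -0.05). Of the 40, 32 had a positive difference and all 40 were within 2-fold of control at day 30. Over all genes tested 21.6% were raised at day 6, 13.7% had a positive difference and 56.0% were within 2-fold at day 30. Of 32 ribosome biogenesis genes, all 32 were raised at day 6 (median 1.02), 27 had a positive difference and all 32 were within 2-fold at day 30 (median -0.03). The count of 27 was 14 to 15 without control replicate 2 of day 6, control replicate 1 of day 30 or imiquimod replicate 2 of day 30. Of 34 genes of DNA replication and S phase, 28 were raised at day 6 (median 1.11), 20 had a positive difference, and 28 were within 2-fold at day 30 (median -0.04). Of 30 mitosis genes, 22 were raised at day 6 (median 1.00), 15 had a positive difference and 29 were within 2-fold at day 30 (median -0.07). The counts of division genes moved with single libraries. At day 6, without control replicate 2 of that day, 14 were raised in S phase and 12 in mitosis. Without imiquimod replicate 2 of day 30 the positive differences numbered 6 in S phase and 2 in mitosis. The other settings that moved those 2 counts by over 1.5 times gave 8 to 13 in S phase (control replicate 2, imiquimod replicate 1 or imiquimod replicate 2 of day 6, or control replicate 1 of day 30 left out) and 4 to 8 in mitosis (control replicate 2 or imiquimod replicate 2 of day 6, or control replicate 2 or imiquimod replicate 1 of day 30 left out). Of 30 glycolysis and hypoxia genes, 21 were raised at day 6 (median 1.64) and 17 had a positive difference, 7 to 8 without control replicate 2 or imiquimod replicate 2 of day 6, control replicate 1 or imiquimod replicate 2 of day 30. Of 25 genes of the unfolded protein and amino acid stress responses, 14 were raised (9 without control replicate 2 of day 6) and 10 had a positive difference, and of 23 NRF2 targets and glutathione genes, 17 were raised, 1 was lowered and 12 had a positive difference. No gene of these 7 lists passed at day 30, where 0.0116% of all genes did.

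**Figure D3:**
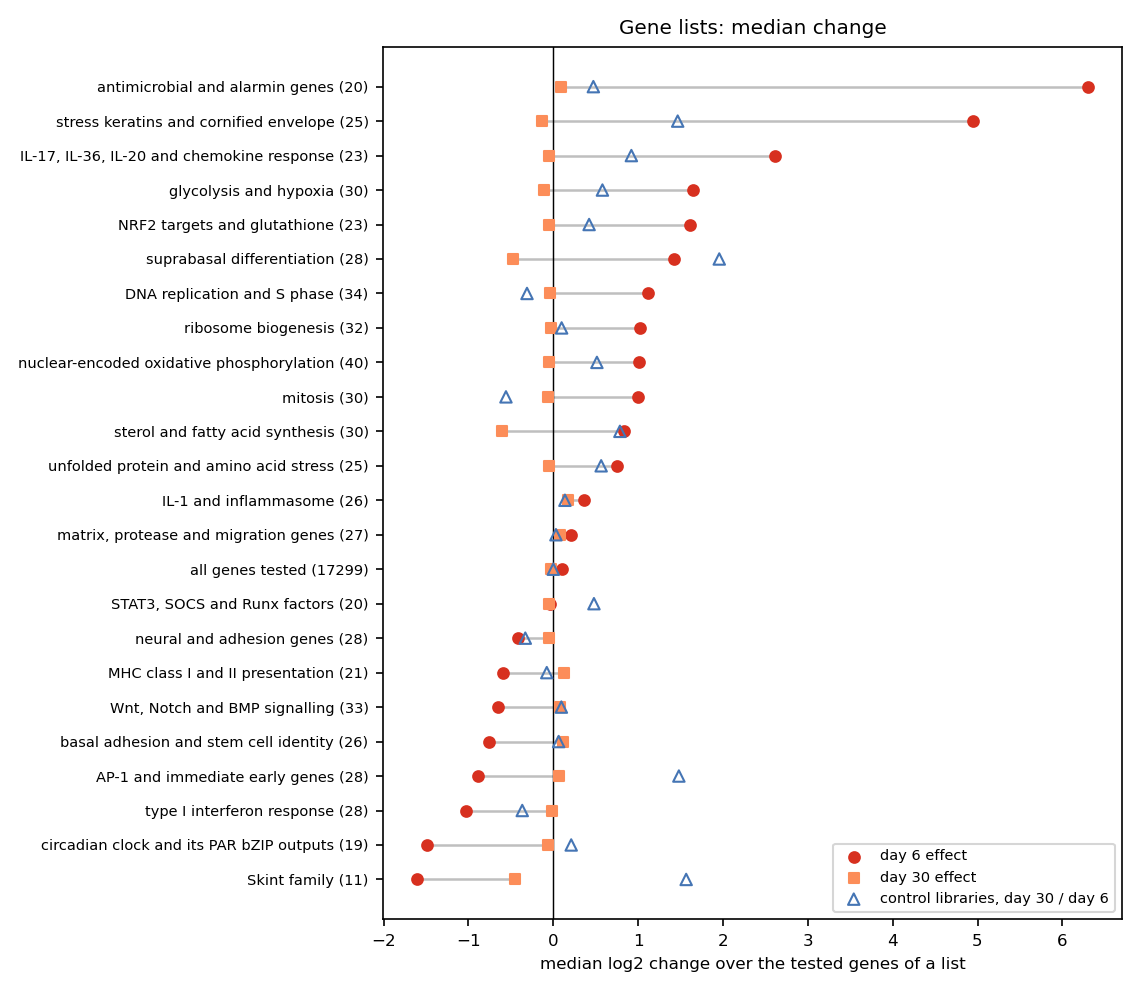
Median log2 change over the tested genes of each list (their number in brackets): circles, imiquimod over control at day 6; squares, the same at day 30; triangles, day 30 over day 6 in control libraries. Day 30 medians lie near 0 for most lists, and that of the sterol and fatty acid list, at -0.60, is the lowest of those drawn, though it was -0.24 without control replicate 2 of day 30.

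Aim2 was the raised gene classed as kept in the fit of all 16 libraries. Aim2 encodes a sensor of cytosolic DNA that assembles an inflammasome with caspase-1, and lies at chr1:173349547-173466040 (GRCm38.p6). It had 19.3 and 32.8 CPM after imiquimod at day 6, against 2.21 and 2.25 CPM in control. The day 30 levels were 9.96 and 10.6 CPM after imiquimod, against 1.14 and 1.18 CPM in control. Imiquimod libraries lay above control libraries at both days. Groups did not overlap, in either direction, for 68.0% of all genes at day 6 and 27.0% at day 30. Macrophages also express Aim2. Their marker Adgre1 was at 0.226 and 0.206 CPM after imiquimod at day 30, against 0 and 0.118 CPM in control, so it was higher in both imiquimod libraries. Csf1r was at 0 and 0.206 CPM after imiquimod, against 0.284 and 0.325 CPM in control. Of 17 macrophage markers tested, 7 estimates lay above and 7 below control at day 30, with a median log2 change of 0. The part of macrophages in the Aim2 level was not tested. The day 6 effect was 3.54 ± 0.33 and the day 30 effect 3.15 ± 0.34 (adjusted p = 0.00709, 95% interval 2.42 to 3.88), so that 88.8% of the log2 change was left. The difference, 0.40 ± 0.45, did not pass (adjusted p = 0.575). In wounded skin, in libraries that neither day used, the imiquimod effect averaged over 6 h and 12 h was 2.92 (adjusted p = 0.00016). The day 30 call was lost, at almost the same value, without control replicate 1 of day 30 (3.13, adjusted p = 0.0525), without control replicate 2 (3.21, adjusted p = 0.282) and without imiquimod replicate 2 (3.12, adjusted p = 0.0564). It was also lost in a fit of the 8 libraries alone (3.17, adjusted p = 0.0628) and with the day 30 libraries of replicate 2 alone (3.18, adjusted p = 0.204). A RefSeq promoter window of Aim2, from 250 bases before to 50 after a start site (GRCm38.p6, plus strand, chr1:173420354-173420653), is shown because Aim2 was classed as kept. The window lies inside the gene interval given above, and no window at the upstream end of that interval was searched. An interferon-stimulated response element, searched on both strands as GAAA, any 2 bases and GAAA again, lies in 3.44% of 32851 windows and not in this one:
Aim2: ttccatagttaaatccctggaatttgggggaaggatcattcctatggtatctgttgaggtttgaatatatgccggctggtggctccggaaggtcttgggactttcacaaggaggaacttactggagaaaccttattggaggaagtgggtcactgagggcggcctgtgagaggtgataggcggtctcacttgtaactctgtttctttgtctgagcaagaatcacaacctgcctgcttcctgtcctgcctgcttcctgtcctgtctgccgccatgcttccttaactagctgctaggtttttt

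Zfp608, a zinc finger gene, was lowered at both days. It had 0.681 and 0.635 CPM after imiquimod at day 6, against 5.85 and 6.46 CPM in control, and 1.18 and 0.998 CPM after imiquimod at day 30, against 4.54 and 6.73 CPM in control. Both imiquimod libraries lay below both controls at each day. The day 6 effect was -3.22 and the day 30 effect -2.38 ± 0.31 (adjusted p = 0.0266), with a difference of -0.84 (adjusted p = 0.177) and a wound effect of -2.48 (adjusted p = 0.000422). With the replicate block the day 30 adjusted p was 0.0688, and 5 of the 8 leave-one-out fits lost the call (values -2.48 to -2.03, adjusted p 0.0856 to 0.289): those without either control library of day 6, control replicate 2 of day 30 or either imiquimod library of day 30. Gpc3, a cell surface proteoglycan, had 1.70 and 1.40 CPM after imiquimod at day 6, against 14.6 and 12.4 CPM in control, and 3.12 and 1.27 CPM after imiquimod at day 30, against 8.42 and 13.8 CPM in control. Its groups did not overlap at either day. Its day 30 effect, -2.35 ± 0.37, missed the threshold (adjusted p = 0.139) and its wound effect was -2.63 (adjusted p = 0.00109). Its day 30 effect passed by DESeq2 (-2.35, adjusted p = 8.91e-07), without the filter on low counts (-2.35, adjusted p = 4.69e-08), with the day 30 libraries of replicate 2 alone (-3.42, adjusted p = 0.0249) and without imiquimod replicate 1 of day 30 (-3.10, adjusted p = 0.0422). Casp1, which encodes caspase-1, had 45.1 and 49.8 CPM after imiquimod at day 6, against 10.5 and 12.0 CPM in control, and 30.7 and 45.7 CPM after imiquimod at day 30, against 14.4 and 18.3 CPM in control. The groups were apart at both days. Its day 30 effect of 1.22 ± 0.28 had an unadjusted p of 0.00068 and an adjusted p of 0.692. With the replicate block that adjusted p was 0.0367, and the difference of effects, 0.86 without the block (adjusted p = 0.13), was 0.87 with it (adjusted p = 0.00757). Runx1, a transcription factor of epithelial stem cells, behaved in the same manner: its day 30 effect was 1.38 without the block (adjusted p = 0.984) and 1.37 with it (adjusted p = 0.011), with a difference of 0.94 under the block (adjusted p = 0.00274). The genes classed as kept with the block were Aim2, Casp1, Runx1, the protease gene Tmprss11g and Svip. Casp1 and Runx1 were classed so by their day 30 effects, and a loss of less than 50% was not shown (adjusted p = 0.481 and 0.294). For Svip such a loss was shown (adjusted p = 0.0339), but its day 30 effect of -2.77 did not pass (adjusted p = 0.236). Runx1, Tmprss11g and Svip were singled out after their values were seen.

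Of strong day 6 changes, 81 raised genes (4.42%) were above control at day 30 with an unadjusted p below 0.05, against 2.08% of all genes. Below control at that p were 56 lowered genes (3.34%), against 2.06% of all genes. A looser rule took those with no overlap at either day and a mean log2 CPM of at least 2, without predicted genes or pseudogenes: 22 raised and 25 lowered. These are a description, as day 30 values chose them. The largest after Aim2 among raised genes were Cald1, which encodes the actin-binding caldesmon (day 30 effect 1.88), H2-Ab1, an MHC class II chain (1.71), and Fmnl2, a formin (1.64). H2-Ab1 is also expressed by dendritic cells. Their 12 listed markers summed to 177 and 148 CPM after imiquimod at day 30, against 202 and 151 CPM in control, of which the also epithelial gene Epcam held 172 and 143 CPM after imiquimod, against 196 and 147 CPM in control. The dendritic genes Flt3 and Clec9a were at 0 in these 4 libraries, and Itgax at most at 0.284 CPM. The same list holds the Langerhans cell gene Cd207, at 1.36 and 0.31 CPM after imiquimod, against 0.52 and 0.266 CPM in control. Caldesmon is also expressed by fibroblasts. Their gene Col1a1 was at 50.6 and 0.0688 CPM after imiquimod at day 30, against 0.993 and 0.974 CPM in control. Col1a1 was above both controls in imiquimod replicate 1 only. Dcn, another fibroblast gene, was at 5.57 and 0.688 CPM after imiquimod, against 0.615 and 0.59 CPM in control. Of 16 fibroblast markers tested, 11 estimates lay above and 5 below control at day 30, with a median log2 change of 1.76. At an unadjusted p below 0.05, 5 were above and 1 was below. The part of those cells was not tested. In the wound libraries, which did not choose them, the imiquimod effect was positive in 17 of 22 raised genes (77.3%, median 0.48), against 49.2% of all genes, and negative in 24 of 25 lowered genes (96%, median -0.65), against 50.7% of all genes. The positive share was not particular to the 22 genes. Among genes raised at day 6 but below control at day 30, described below, it was 20 of 25 (80%). Among genes lowered at day 6 but above control at day 30, the wound effect was negative in 10 of 14 (71.4%). The wound tests passed in 2 of the 22 raised and 3 of the 25 lowered genes. Of all genes 33 (0.191%) passed, 0.110% positive and 0.0809% negative.

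**Figure D4:**
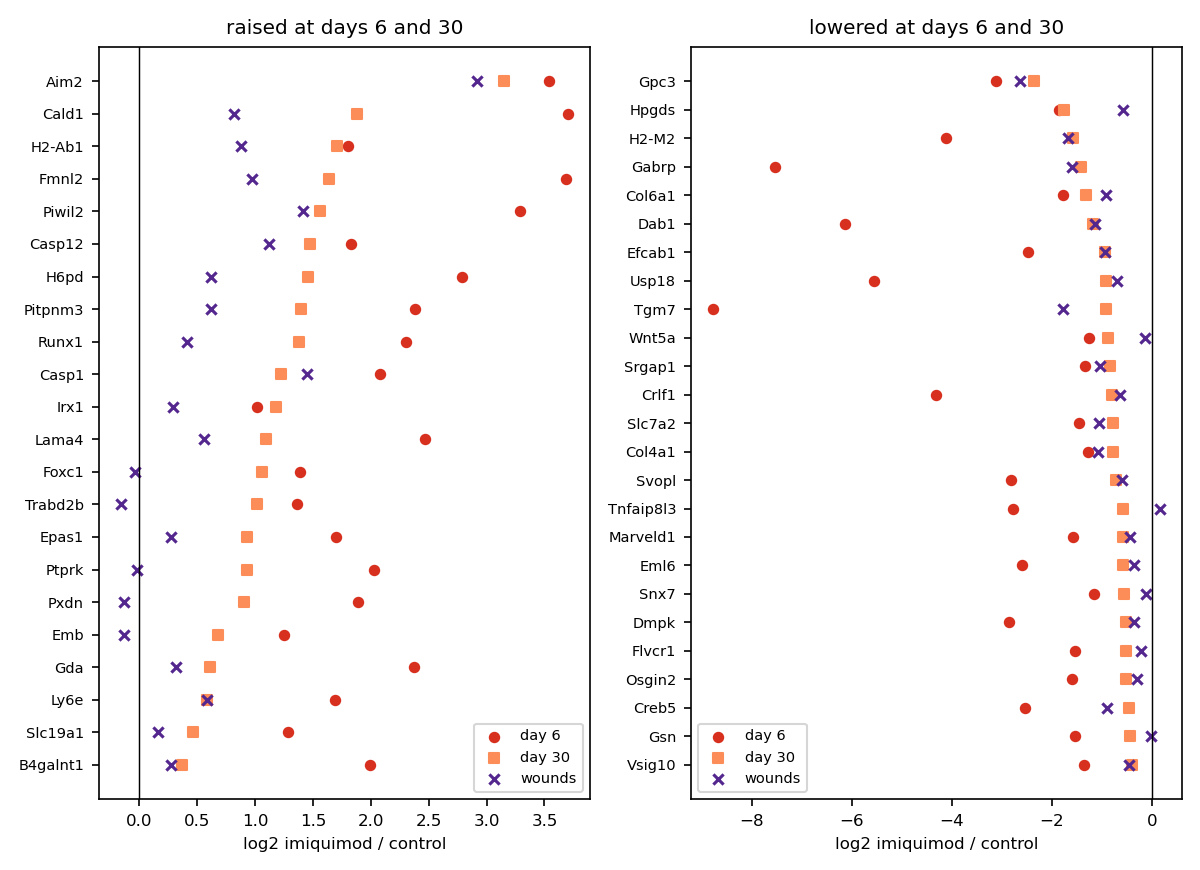
Log2 change of imiquimod over control at day 6 (circles), at day 30 (squares) and averaged over wounds (crosses) for the 22 raised and 25 lowered genes of the looser rule. Aim2 lies at 3.54, 3.15 and 2.92, Gpc3 at -3.11, -2.35 and -2.63, and most others are nearer to 0 at day 30 than at day 6.

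Most genes of cholesterol and fatty acid synthesis were raised at day 6 and had estimates below control at day 30, none of which passed adjustment. Cholesterol is built from acetyl-CoA through mevalonate and squalene, and this pathway is under shared control of SREBP factors in mammals. Of 30 such genes, 19 were raised at day 6 (median 0.83), and at day 30 all 30 estimates were below control (median -0.60), 17 of them with an unadjusted p below 0.05, where 2.06% of all genes had a negative effect at that p. The difference was positive in 21 of 30, or 9 in a fit of the 8 libraries alone. In wounds the median imiquimod effect of the 30 genes was 0.17, on the other side of control from day 30, against -0.004 for all genes. None of the 30 passed there. In control, 16 of the 30 were higher at day 30 than at day 6, or 4 to 9 without either control library of day 6 or control replicate 2 of day 30. Without control replicate 2 of day 30, 21 of 30 estimates were below control at that day, the median was -0.24 and the count of 17 was 5, and without imiquimod replicate 1 of day 30 it was 10. The day 6 count of 19 was 11, 9 and 11 without control replicate 1, control replicate 2 or imiquimod replicate 1 of day 6. Cyp51, a demethylase of the sterol ring (chr5:4080674-4104697), had 189.3 and 183.0 CPM after imiquimod at day 6, against 72.4 and 58.0 CPM in control. Day 30 libraries held 109.0 and 110.0 CPM after imiquimod, against 178.0 and 263.0 CPM in control. The order of the groups was the opposite at each day, with no overlap. The day 6 effect was 1.51 ± 0.20, the day 30 effect -1.01 ± 0.19 (unadjusted p = 0.000163, adjusted p = 0.469) and the difference 2.52 ± 0.28 (adjusted p = 0.00016). Cyp51 in control was also higher at day 30 than at day 6, by 1.76. Acat2, which makes acetoacetyl-CoA, had 52.7 and 46.3 CPM after imiquimod at day 6, against 16.4 and 18.0 CPM in control, and 7.74 and 12.4 CPM after imiquimod at day 30, against 18.7 and 22.4 CPM in control. Its groups changed order too, with a difference of 2.55 ± 0.30 (adjusted p = 0.000235). Scd2, a fatty acid desaturase, had 261.3 and 136.6 CPM after imiquimod at day 6, against 79.1 and 85.4 CPM in control, and 21.8 and 21.4 CPM after imiquimod at day 30, against 46.6 and 154.1 CPM in control. The control libraries of day 30 were far from each other, and the difference was 3.49 ± 0.66 (adjusted p = 0.00451). Squalene epoxidase Sqle (3.23, adjusted p = 0.00146) and the sterol oxidase Msmo1 (2.27, adjusted p = 0.000211) had the same order of groups. With the block Fdft1, the squalene synthase, was called lower at day 30 (log2 change of -1, adjusted p = 0.0367). It was singled out after its values were seen.

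The promoter windows of 4 members with called differences are shown, 3 with a CCAAT box and Acat2 with none, so that they can be compared. Of the 30 genes, 20 had at least 1 RefSeq window (25 windows, GRCm38.p6). A CCAAT box, searched as CCAAT on both strands, lay in 19 of 25 (76%), against 37.4% of 32851 windows, and the share was as high, 16 of 21 (76.2%), in the circadian clock list, 12 of whose 19 genes were lowered at day 6. A sterol regulatory element searched as TCACNCCAC lay in 1 of 25 (4%), against 1.24% of all windows. Such matches describe the letters and not a site in use. Capitals mark CCAAT or its complement ATTGG, and the windows are Acat2 (minus strand, chr17:12960676-12960975), Cyp51 (minus strand, chr5:4104648-4104947), Msmo1 (minus strand, chr8:64733529-64733828) and Mvd, the mevalonate diphosphate decarboxylase (minus strand, chr8:122443373-122443672). The call of Mvd (difference 3.37, adjusted p = 0.0112) was lost without control replicate 2 of day 6 (3.26, adjusted p = 0.053), and its value was 1.89 without control replicate 2 of day 30:
Acat2: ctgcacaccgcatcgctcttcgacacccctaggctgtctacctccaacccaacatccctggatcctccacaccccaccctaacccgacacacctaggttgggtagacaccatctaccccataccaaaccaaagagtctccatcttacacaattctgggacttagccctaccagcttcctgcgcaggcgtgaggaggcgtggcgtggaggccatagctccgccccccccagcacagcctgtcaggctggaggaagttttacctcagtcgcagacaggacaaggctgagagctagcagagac
Cyp51: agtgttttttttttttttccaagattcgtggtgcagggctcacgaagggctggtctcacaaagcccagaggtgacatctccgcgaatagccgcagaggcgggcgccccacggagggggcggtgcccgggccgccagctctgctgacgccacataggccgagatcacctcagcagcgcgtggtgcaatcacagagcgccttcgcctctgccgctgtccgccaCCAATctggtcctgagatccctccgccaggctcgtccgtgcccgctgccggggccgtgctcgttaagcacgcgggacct
Msmo1: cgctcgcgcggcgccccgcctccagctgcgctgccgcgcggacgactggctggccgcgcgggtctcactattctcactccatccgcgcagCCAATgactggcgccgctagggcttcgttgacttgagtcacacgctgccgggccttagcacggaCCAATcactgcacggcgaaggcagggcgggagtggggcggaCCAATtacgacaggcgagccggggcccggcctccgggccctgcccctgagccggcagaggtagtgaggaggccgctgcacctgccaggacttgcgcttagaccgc
Mvd: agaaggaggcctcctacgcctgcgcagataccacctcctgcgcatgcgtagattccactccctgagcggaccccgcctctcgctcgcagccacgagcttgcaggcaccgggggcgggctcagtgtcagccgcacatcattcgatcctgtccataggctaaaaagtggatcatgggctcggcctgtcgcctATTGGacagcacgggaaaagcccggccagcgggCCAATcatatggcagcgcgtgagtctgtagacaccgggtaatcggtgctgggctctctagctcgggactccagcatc

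A smaller set had the opposite order, below control at day 6 and above it at day 30. Txnip, an inhibitor of thioredoxin that restrains glucose uptake, had 127.9 and 158.7 CPM after imiquimod at day 6, against 690.1 and 1046 CPM in control, and 1030 and 500.6 CPM after imiquimod at day 30, against 442.6 and 165.3 CPM in control. Imiquimod libraries were the lower pair at day 6 and the higher pair at day 30. Its difference was -3.93 ± 0.81 (adjusted p = 0.00703), with a day 30 unadjusted p of 0.0382. Mcam, a cell adhesion molecule, had a day 6 effect of -2.17, a day 30 effect of 0.73 (unadjusted p = 0.0151) and a difference of -2.90 (adjusted p = 0.00036). Day 30 reversals of this kind, with an unadjusted p below 0.05, no overlap and the same limits on level and name, numbered 25 among raised and 14 among lowered genes. By the p and direction alone they numbered 52 raised (2.84%) and 40 lowered genes (2.39%), against 2.06% of all genes negative and 2.08% positive at that p. In wounds the effect of the 25 was positive in 20 (80%), the day 6 direction and not that of day 30. None of the 39 had a day 30 or wound effect that passed adjustment.

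A changed effect can arise because the imiquimod level moved or because the control level did. Between day 6 and day 30 the imiquimod groups differed in 7366 genes (42.6%), 3169 higher at day 30 (18.3%) and 4197 lower (24.3%), and the control groups in 3677 (21.3%), 2043 higher at day 30 (11.8%) and 1634 lower (9.45%). Among the 3894 genes with a called difference, imiquimod alone moved in 2489, both in 540, control alone in 634 and neither in 231, and the change in control was the larger in 976. Cxcl1, a chemokine for neutrophils, had 40.9 and 22.3 CPM after imiquimod at day 6, against 1.63 and 0.872 CPM in control. In day 30 libraries the gene was at 23.0 and 9.09 CPM after imiquimod, against 18.4 and 8.14 CPM in control, so control had come up to imiquimod. The control level at day 30 was above that at day 6 by 3.35 (adjusted p = 0.00305), and the imiquimod level differed by -0.99 (adjusted p = 0.123). The difference of effects was 4.34 (adjusted p = 0.00276). Elf3, an epithelial transcription factor, followed with a control change of 3.72 (adjusted p = 0.00526), and Bcl3, a nuclear factor kappa B cofactor, with 2.18 (adjusted p = 0.00473). In Jak3, a cytokine receptor kinase, control went the other way, by -1.62 (adjusted p = 0.000811), and the difference was -1.75 (adjusted p = 0.00315). The imiquimod level did not pass the test between the days in any of these 4 genes. Its adjusted p was 0.357 for Elf3, 0.422 for Bcl3 and 0.685 for Jak3. The rule that named Cxcl1 and Elf3 asks for this, so for them it is a description of the choice and not a result. Day, age, handling and sex cannot be told apart in that control change. Control replicate 1 of day 30 held 7830 Y-linked reads, and no control library of day 6 held over 1. The count of 3677 moved with single libraries and was 6138 with the block.

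Suprabasal and immediate early genes shared that shift in control. Of 28 AP-1 and immediate early genes, 16 were higher in control at day 30 than at day 6 (median 1.48). At day 6, 10 were lowered (16 without imiquimod replicate 2 of day 6) and 4 raised (2 without either control library of day 6) by imiquimod, and the difference was negative in 5 and positive in 1. The 5 were 12 without imiquimod replicate 2 of day 6, 3 without imiquimod replicate 1 of day 6 or imiquimod replicate 2 of day 30, and 13 with the block. The 16 were 5 to 9 without any 1 of the 4 control libraries. Fosb, an AP-1 subunit, had a difference of -2.56 (adjusted p = 0.00192) and returned. Of 28 suprabasal differentiation genes, 11 were raised and 4 lowered at day 6 (median 1.42), and the difference was positive in 8 and negative in 2. The 11 were 7 without control replicate 1 and 6 without control replicate 2 of day 6, and 17 with the block. At day 30, 25 of the 28 estimates were below control (median -0.48), but 3 were without control replicate 2 of day 30 (median 0.65), and the median was -1.19 without imiquimod replicate 2 of day 30. The positive count was 15 without control replicate 1 and 5 without control replicate 2 of day 30, and 16 with the block. In control 9 of the 28 were higher at day 30 than at day 6 (median 1.96), or 23 with the block, 19 without control replicate 1 of day 30 and 2 without control replicate 1 of day 6. The control libraries of day 30 differed from each other in these genes, with Krt77, a suprabasal keratin, at 2151 and 13470 CPM.

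Some of the interferon, antigen presentation and clock genes were lowered at day 6, and none passed at day 30. Of 28 type I interferon response genes, 9 were lowered and 0 raised at day 6 (median -1.03), none passed at day 30 (median -0.02) and 4 had a negative difference, 7 with the block and 2 without control replicate 1 of day 6, imiquimod replicate 2 of day 6 or imiquimod replicate 2 of day 30. Usp18, a protease that removes ISG15 and dampens interferon signalling, had 0.461 and 0.571 CPM after imiquimod at day 6, against 20.3 and 28.1 CPM in control. At day 30 the levels were 23.7 and 15.9 CPM after imiquimod, against 44.8 and 30.2 CPM in control, below both controls still. Its difference was -4.64 (adjusted p = 0.000362). Of 21 MHC class I and II presentation genes, 10 were lowered and 6 raised at day 6, and the difference was negative in 9 and positive in 1, with 5 negative without control replicate 2 of either day. The 6 raised were 2 to 3 without control replicate 1, control replicate 2 or imiquimod replicate 1 of day 6. Macrophage markers, given above, were raised at the same time, and their part was not tested. Of 19 circadian clock genes and outputs, 12 were lowered at day 6 (median -1.49), none passed at day 30 (median -0.06) and 8 had a negative difference. Npas2, a clock transcription factor, had 2.56 and 4.76 CPM after imiquimod at day 6, against 42.4 and 45.5 CPM in control. At day 30 it had 27.9 and 44.1 CPM after imiquimod, against 25.3 and 36.7 CPM in control, with overlap. Its difference was -3.82 (adjusted p = 0.000477). The hour of harvest is not given in the labels, and its part in the clock genes was not tested. Of 26 IL-1 and inflammasome genes, 8 were raised and 3 lowered at day 6, Aim2 passed at day 30, and the difference was positive in 2, or 6 with the block or without control replicate 1 of day 30, and negative in 2, or 0 without either control library of day 6, control replicate 1 of day 30 or either imiquimod library of day 30. Of 20 STAT3, SOCS and Runx factors, 5 were raised at day 6, or 2 to 3 without either control library or imiquimod replicate 2 of day 6, and 5 were lowered, or 2 to 3 without either control library or imiquimod replicate 1 of day 6. Of 27 matrix, protease and migration genes, 7 were raised, or 4 without control replicate 2 or imiquimod replicate 2 of day 6, and 4 were lowered, or 1 to 8 with single libraries of day 6 left out. No gene of these 2 lists passed at day 30, where 0.0116% of all genes did. Over all genes tested, 21.6% were raised and 15.0% lowered at day 6, against which the day 6 counts of these lists are to be read. The difference was positive in 13.7% and negative in 8.82% of all genes, against 7.7% each way in the IL-1 and inflammasome list.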

How the data were processed

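The values are gene counts deposited by the authors, 1 per gene ID and library, from total RNA of sorted cells on Illumina TruSeq libraries per the labels' protocols. STAR and the mm10 build are named in the submitters' processing notes; no label states the annotation, the counting options or the use of strand, so overlapping and antisense genes cannot be told apart. ATAC-seq samples were not analysed here. Symbols paired with 47224 of the gene IDs, and IDs without one held 0.0366% to 0.0887% of counts.

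Counts were scaled by TMM and filtered by filterByExpr, and 8 group means over all 16 RNA-seq libraries were fitted with edgeR 4.0.16 in R 4.3.3 (quasi-likelihood, robust), so that all groups share 1 estimate of the spread with 8 residual degrees of freedom (common biological coefficient of variation 23%). P-values were adjusted by the Benjamini-Hochberg method over 17299 genes. The members, gene lists and tests were chosen with earlier results of these data known. Named genes were those with a mean log2 CPM of at least 2 and the largest called differences with groups apart at day 6 (10 each way), the largest kept (8) and reversed (6) changes each way, 5 each way where control moved, and 3 from each list, beside a panel of well-known genes; Zfp608 was called at day 30 and is below that level. Control was taken to have moved where the difference and the control change between the days passed and the imiquimod change did not. Intervals on counts cover counting error only.

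Same-numbered imiquimod and control libraries deviated together from their group means in every time group (correlation over genes 0.22 at day 6, 0.452 at day 30, 0.539 and 0.323 in wounds), so the numbers were taken to pair libraries and a block fit was run. Alternatives were RLE scaling, no filter, DESeq2 1.42.0, the 8 libraries alone, the day 30 libraries of replicate 2 alone, leaving out mitochondrial transcripts, other limits, and leaving out each library; those on the sterol list and other lists were added after seeing the data. The fits were also run on simulated data, whose outcome is not used here. Promoter windows came from RefSeq.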

Additional observations from a re-analysis of the deposited data

Results flagged for a closer look

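The effect of imiquimod differed between day 6 and day 30, by the test of the difference itself, in 3894 genes. Named genes whose day 30 estimate lay on the opposite side of control with an unadjusted p below 0.05 and no overlap of the groups at either day, up to 6 in each direction, were, among those raised at day 6, Scd2 (difference of effects 3.49), Sqle (3.23), Acat2 (2.55), Cyp51 (2.52), the farnesyl diphosphate synthase gene Fdps (2.05) and Ceacam12 (2.04), and, among those lowered at day 6, Txnip (-3.93), Sectm1b (-3.40), Fhod3 (-2.22), Thsd4 (-2.58), Jak3 (-1.75) and Mcam (-2.90). The call of Fdps was lost in 4 of 8 leave-one-out fits, without control replicate 2 or imiquimod replicate 1 of day 6, or control replicate 2 or imiquimod replicate 1 of day 30, with differences of 1.40 to 1.79 there. No day 30 effect of these 12 genes passed adjustment. Other named genes had a day 30 estimate on the opposite side without being chosen by that rule, such as Fabp5 (-0.63) and Egfl6 (0.69).

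Outside the comparison, Y-linked genes held 6036 reads in imiquimod replicate 1 and 7830 reads in control replicate 1 of day 30, in libraries labelled female.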

How the results depend on the processing

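The 101 named genes with a called difference kept their direction in the settings run, but not all kept the call: 75 passed in the 8 libraries alone, 89 with the day 30 libraries of replicate 2 alone, 99 with the block and 79 (without control replicate 2 of day 6) to 92 when a library was left out, while DESeq2, RLE scaling and the fits without a filter or mitochondrial transcripts lost no call. The block fit gave a difference of effects in 5927 genes (2406 negative), day 30 effects in 5, losses of more than 50% in 2923, control changes in 6138, wound effects in 234, and 1229 returned, 368 reduced and 5 kept. Without a filter on low counts these were 151 at day 30, 1846 losses, 644 in wounds, and 1110 returned, 350 reduced, 68 kept and 41 on the opposite side. DESeq2 gave 20 at day 30, 1881 losses, 280 in wounds, and 843 returned, 383 reduced, 15 kept and 4 on the opposite side. The 8 compared libraries alone gave 0 at day 30, 1802 differences (800 positive, 1002 negative, 9 in the sterol list), 94 losses, 1508 control changes, and 62 returned, 31 reduced and 0 kept, and give no wound value. With the day 30 libraries of replicate 2 alone there were 1 at day 30, 211 losses, 2323 control changes, 87 in wounds, 1469 positive differences, and 65 returned and 1 kept. An equivalence limit of 1.5-fold gave 171 returned and 442 reduced. A required loss of more than 0.75 of the effect gave 0 and 1, and of more than 0.25 gave 1112 and 585 with 1809 unplaced. A strong change from a log2 of 2 gave 130 returned and 1263 unplaced. The causes were not tested.

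Leaving out each of the 8 libraries gave 4100 to 6637 genes at day 6, 0 to 2 at day 30, 2324 to 3803 differences (1319 to 2172 positive, 970 to 1631 negative), 89 to 1090 losses, 8028 to 9849 within 2-fold, 1502 to 3932 control changes, 5106 to 7803 imiquimod changes, 32 to 58 in wounds, 39 to 625 returned, 46 to 216 reduced, 0 to 2 kept, 0 to 1 on the opposite side and 2336 to 3466 unplaced. In the sterol list, differences ran from 14 to 22 and day 30 losses at an unadjusted p below 0.05 from 5 to 23.

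Differences of effects that changed sign belonged to genes that were not called. H2-Ab1 was at 0 in the 8 libraries alone, and with the day 30 libraries of replicate 2 alone Casp12 was at -0.83, Gpc3 at 0.20, Hpgds at 0.02 and Krt5 at -0.30. In leave-one-out fits Aim2 ran from -0.08 to 0.69, H2-Ab1 from -0.56 to 0.77, Casp12 from -0.65 to 0.93, Hpgds from -1.34 to 0.51, Krt5 from -0.34 to 0.43, Krt10 from -0.68 to 1.05 and Il1b from -0.17 to 1.96.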
